A study of Mus musculus with 6 samples.

Results

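Chemokines are small secreted or membrane-held proteins that guide leukocytes and other cells through G protein-coupled receptors. The CC, CXC and CX3C families are named for the spacing of their first cysteines. Most are inflammatory, made after signals such as TNF, interleukin-1 or interferons reach the cell, whereas Cxcl12 is homeostatic and is made without an inflammatory signal in many tissues, among them the podocytes of the developing glomerulus. The 10 ligand genes described here, Ccl2, Ccl5, Ccl7, Cxcl1, Cxcl2, Cxcl9, Cxcl10, Cxcl12, Cxcl16 and Cx3cl1, were taken by their NCBI Gene identifiers from a table of 27179 features, and all 10 were found.

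The RNA came from whole glomeruli of male mice aged 9 weeks of the strain given as C57BL/6 mixed, isolated after perfusion with magnetic beads and described as mildly proteinuric. The 3 KO mice were Parva-fl/fl*hNPHS2Cre, in which the Cre recombinase is driven by the human podocin promoter and so is active in podocytes. The 3 WT mice were Parva-fl/fl, so both groups carried the floxed alleles and the WT mice lacked Cre. Parva encodes alpha-parvin, which links integrins to actin. Endothelial, mesangial and other cells of the KO glomeruli kept the gene, and in RNA of a whole tissue fewer cells of a type and less RNA per cell cannot be told apart.

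Parva had normalised counts (reads per gene divided by a size factor per library) of 6585, 7520 and 7890 in the WT libraries and 2288, 2338 and 1942 in the KO libraries, always listed here in the order of their numbers (WT-1 to WT-3, KO-1 to KO-3). Its log2 fold change was -1.74 (SE 0.12, limma adjusted p = 0.0106, and 0.0792 without WT-2 and 0.053 without WT-3). The libraries held 11886828 to 20552984 whole reads, or 11283413 to 14310785 when 10 genes counted almost wholly in a single library (30 times the next or more) are set aside. Summed podocyte, endothelial and mesangial markers were present in every library and lower in KO, at 150420 to 222157 against 225978 to 281433 normalised counts for 10 podocyte markers and at 53977 to 65116 against 87388 to 110312 for 11 endothelial markers. The 14 proximal tubule markers summed to 49367 to 107998 in WT and to 151143 to 216152 in KO. KO-3 stood apart in several genes below: of 13946 genes tested, 127 (0.911%) were at least 2 times higher in KO-3 than in every other library, against 9 to 29 genes for each of the other libraries, a rule chosen after the values were seen. Results are therefore given with and without KO-3.

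Short stretches before the start of 4 of the genes are shown because Cxcl1, Cxcl2 and Cxcl10 are known targets of NF-kB or interferon signalling and Cxcl12 is the homeostatic member they are set against. Promoter windows from 250 bases before to 50 bases after the start were taken from RefSeq in the build mm10 (GRCm38), and 6 of the 10 members had one, the others being Ccl2, Ccl5, Ccl7 and Cxcl16. In the lines that follow, capitals mark matches on either strand to an NF-kB-like pattern, GGG, any 5 bases, then CC, and in Cxcl10 also to an ISRE-like pattern, GAAA, any 2 bases, then GAAA. Matches may overlap each other. Each stretch reads 5′ to 3′ on the strand of its gene: Cxcl1 chr5:90891145-90891244 (plus), Cxcl2 chr5:90903799-90903898 (plus), Cxcl10 chr5:92348980-92349109 (minus) and Cxcl12 chr6:117168435-117168534 (plus).
Cxcl1: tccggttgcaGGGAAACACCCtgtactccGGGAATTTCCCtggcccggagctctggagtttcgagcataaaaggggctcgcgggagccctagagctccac
Cxcl2: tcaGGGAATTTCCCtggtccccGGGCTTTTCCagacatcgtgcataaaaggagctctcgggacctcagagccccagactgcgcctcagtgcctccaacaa
Cxcl10: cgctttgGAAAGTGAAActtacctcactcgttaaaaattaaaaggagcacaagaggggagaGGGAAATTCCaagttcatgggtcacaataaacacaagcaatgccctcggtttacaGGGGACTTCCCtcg
Cxcl12: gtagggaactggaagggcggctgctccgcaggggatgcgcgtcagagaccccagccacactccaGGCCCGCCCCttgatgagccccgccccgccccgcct

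The NF-kB-like pattern was present in 5 of the 6 windows, all but Cx3cl1, and in 50.8% of all 32851 windows, so it is common. The Cxcl12 match was a GC-rich stretch on the opposite strand, 36 bases before the start. Cxcl1 and Cxcl2, which are neighbours on chromosome 5, held the same 10 letters GGGAATTTCC at 71 and 97 bases before their starts. That string, chosen after the windows were read, was present in 29 windows (0.0883%). The ISRE-like pattern stood 213 bases before the Cxcl10 start and in 3.44% of all windows. The GAS-like pattern, TTC, any 3 bases, then GAA, was in none of the 6 windows and in 8.30% of all. The Cxcl9 and Cx3cl1 windows held TATAAA, as did 13.6% of all. A match describes letters only and is no measured binding site.

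Cxcl12, the ligand of Cxcr4 and Ackr3, was the 1 member of the 10 that passed the test between genotypes. The WT libraries held 1430, 1432 and 1292 normalised counts of it, and the KO libraries 2935, 2273 and 2313. The groups did not overlap, and KO-1 was the highest library. The mean rose from 1385 ± 80.1 (SD, n = 3) to 2507 ± 371 (SD, n = 3), 1.81 times the WT mean. On log2(normalised count + 1), the scale of all fold changes below, the log2 fold change was 0.85 (SE 0.12, limma adjusted p = 0.0286 over all genes tested). In edgeR and DESeq2 on whole reads recovered from the table, the adjusted p was 0.0316 and 1.83e-06. The gene (NCBI Gene 20315) lies on mm10 chromosome 6, 117168535 to 117181368. In limma the adjusted p rose above 0.05 without WT-2 (0.107), WT-3 (0.106), KO-2 (0.109) or KO-3 (0.0695). Of all genes, limma called only 1, 0, 4 and 3 in these settings. The log2 fold change of Cxcl12 stayed between 0.73 and 0.91 with any library left out. Proximal tubule markers rose and podocyte markers were lower in the same libraries, as given above, and their part in the Cxcl12 difference was not tested.

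Of the 7 members with a mean of at least 10 normalised counts, the minimum for testing, 1 was called, against 22.1% of all genes tested. The call was upward, a direction taken by 13.5% of all genes, and no member was called lower, against 8.58% of all genes. At an unadjusted p below 0.05, limma had 5563 of the 13946 genes tested and 4 of the 7 tested members: Ccl2, Cxcl10, Cxcl12 and Cxcl16. DESeq2 called 5 members higher (these 4 and Cxcl1) and 27.3% of all genes. KO and WT libraries did not overlap for 4 of the 10 members, Ccl2, Cxcl10, Cxcl12 and Cxcl16, all higher in KO. All 4 are among the 7 tested members, Ccl2 only through KO-3. The groups did not overlap for 45.1% of the genes tested in either direction and for 23.2% in the higher direction. A two-sided exact permutation test over 3 against 3 libraries cannot give less than p = 0.1, the value of these 4 members.

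**Figure D1:**
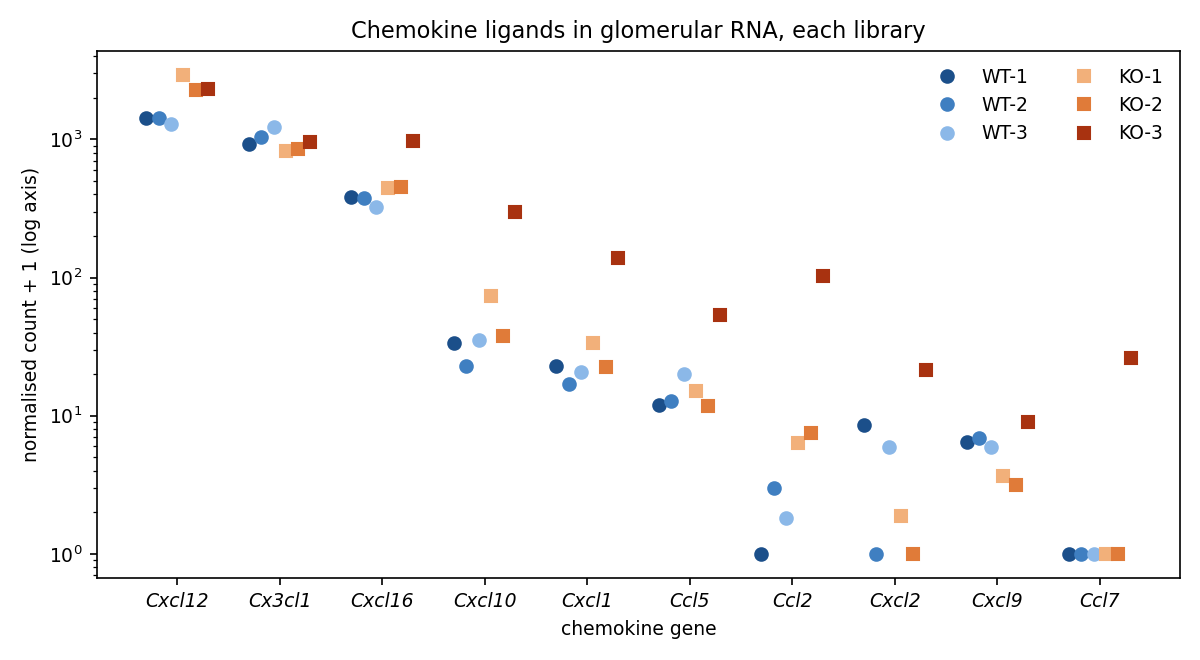
Normalised count + 1 on a log axis for each of the 10 chemokine genes, with 1 point per library (blue circles WT, orange and red squares KO). Cxcl12 is higher in all 3 KO libraries, whereas for Cxcl16, Cxcl10, Cxcl1, Ccl5, Ccl2, Cxcl2 and Ccl7 the darkest square, KO-3, lies at least 2 times above every other library.

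Cx3cl1 and Cxcl16 are made as transmembrane proteins that can hold leukocytes at the cell surface and are released by the proteases Adam10 and Adam17. Cx3cl1 (NCBI Gene 20312; mm10 chromosome 8, 94772180 to 94782427), the ligand of Cx3cr1, stood at 923, 1039 and 1221 in the WT libraries and at 823, 843 and 963 in the KO libraries. KO-3 lay above WT-1, so the groups overlapped, and the means were 1061 ± 150 and 876 ± 75.5 (SD, n = 3 each). Its log2 fold change was -0.27 (SE 0.12, limma adjusted p = 0.149), and it was the 1 tested member with a negative value. Cxcl16 (NCBI Gene 66102; mm10 chromosome 11, 70454389 to 70459984), the ligand of Cxcr6 and a scavenger receptor for oxidised lipoprotein, stood at 379, 376 and 321 in WT and at 442, 452 and 976 in KO. Every KO library was above every WT library, with KO-1 and KO-2 close to the WT range and KO-3 far from it. Its log2 fold change of 0.70 (SE 0.30) gave a limma adjusted p of 0.124, and without KO-3 it was 0.32 (adjusted p = 0.119). DESeq2 gave an adjusted p of 0.0481.

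Among the CC chemokines, Ccl2, the main attractant of Ccr2-bearing monocytes, was nearly absent from WT glomeruli. It had 0, 2 and 1 reads in WT and 6, 6 and 89 reads in KO, or 0, 1.98 and 0.823 against 5.32, 6.50 and 101 normalised counts. All 3 KO libraries were above the WT libraries, but KO-1 and KO-2 only by a few reads, and the gene passed the minimum for testing only through KO-3. The log2 fold change was 3.27 (SE 1.12, limma adjusted p = 0.0736), and it was 1.98 with a pseudocount of 5 and 5.32 in DESeq2 (adjusted p = 0.00159). Without KO-3 the gene fell under the minimum for testing. Ccl7, which shares the receptor Ccr2 and lies 8259 bases from Ccl2 on chromosome 11, had no read in 5 libraries and 22 reads in KO-3. Its 24.9 normalised counts there were at least 7.65-fold higher than the level that 3 reads would give in any of the other libraries, the floor used for a count of 0. Ccl7 had a mean below the minimum and was not tested in the main comparison.

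Ccl5, a ligand of Ccr1 that T cells and activated tissue cells make, stood at 10.9, 11.9 and 18.9 in WT and at 14.2, 10.8 and 52.2 in KO. KO-1 and KO-2 lay within or just under the WT range and KO-3 lay 2.76 times above the highest other library. The log2 fold change was 0.55 (SE 0.59, limma adjusted p = 0.523), and without KO-3 it turned to -0.11. Ccl2, Ccl5 and Ccl7 all lie on mm10 chromosome 11, at 82035577 to 82037452, 83525778 to 83530518 and 82045712 to 82047525.

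Cxcl1 and Cxcl2 carry the ELR motif of neutrophil attractants and act through Cxcr2. Cxcl1 (mm10 chromosome 5, 90891245 to 90893121) stood at 21.7, 15.8 and 19.8 in WT and at 32.8, 21.7 and 137 in KO. KO-2 did not exceed WT-1, so the groups overlapped. The log2 fold change was 1.25 (SE 0.63, limma adjusted p = 0.182), and it was 0.47 without KO-3. Cxcl2, whose annotated span begins 10777 bases beyond the end of Cxcl1, had 7, 0 and 6 reads in WT and 1, 0 and 18 reads in KO, and its mean was under the minimum. These 2 neighbours with the shared promoter string were both highest in KO-3, while in KO-1 and KO-2 Cxcl1 kept 37 and 20 reads and Cxcl2 had 1 and 0.

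Cxcl9 and Cxcl10 are interferon-induced ligands of Cxcr3, and their genes lie 18558 bases apart on mm10 chromosome 5. Cxcl10 (92346638 to 92348889) stood at 32.6, 21.8 and 34.6 in WT and at 72.6, 36.8 and 299 in KO. All KO libraries were above all WT libraries, though KO-2 was above WT-3 by little, and KO-3 was 4.12 times the highest other library. The log2 fold change was 1.65 (SE 0.69, limma adjusted p = 0.121). It was 0.81 without KO-3 (adjusted p = 0.187), and DESeq2 gave an adjusted p of 0.00713 with all libraries. Cxcl9 (92321331 to 92328079) differed in pattern. It had 5, 6 and 6 reads in WT and 3, 2 and 7 reads in KO, so KO-1 and KO-2 were the lowest libraries and KO-3 was only 1.34 times the highest other library. At this depth no difference of Cxcl9 between genotypes was detectable, and with the minimum lowered to a mean of 1 its limma adjusted p was 0.58, against 0.41 for Ccl7 and 0.959 for Cxcl2.

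**Figure D2:**
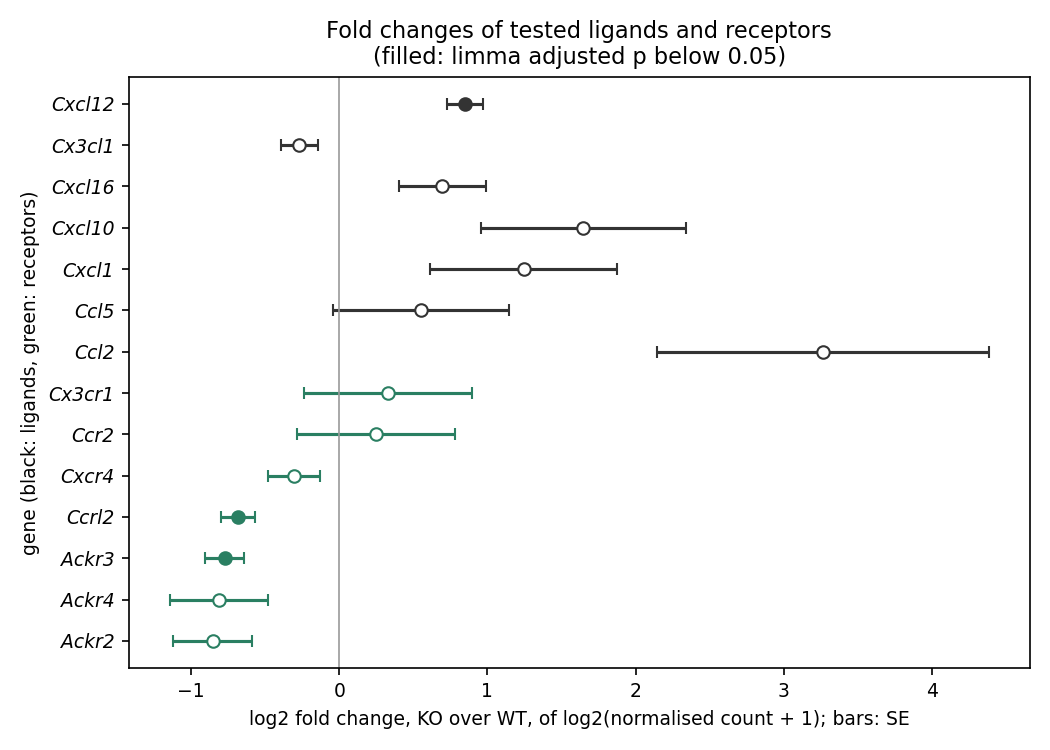
Log2 fold change of KO over WT on log2(normalised count + 1), with the standard error as bars, for the 7 tested ligands (black) and 7 tested chemokine receptors (green). Filled points have a limma adjusted p under 0.05: Cxcl12 at 0.85, Ccrl2 at -0.68 and Ackr3 at -0.77. The bars take in the spread of both groups and are widest for Ccl2, Cxcl10 and Cxcl1.

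KO-3 was the highest library for 8 of the 10 members and at least 2 times every other library for 7 of them (Ccl2, Ccl5, Ccl7, Cxcl1, Cxcl2, Cxcl10 and Cxcl16). Of the 7 tested members 5 met the rule, and 0.911% of all genes tested did. KO-3 was the highest library for 5 of the 7 tested members and for 2532 of the 13946 genes tested. Nothing is read from these shares, since the rule was chosen after the values of KO-3 were seen and Ccl2 passed the minimum only through KO-3. No member met it in any other library. The ratio of KO-3 to the highest other library was 15.5 for Ccl2, 4.19 for Cxcl1 and 2.16 for Cxcl16. With KO-3 set aside, the mean of KO-1 and KO-2 was 1.88 times the WT mean for Cxcl12, 1.85 times for Cxcl10, 1.42 times for Cxcl1, 1.25 times for Cxcl16, 0.90 times for Ccl5 and 0.785 times for Cx3cl1. No such ratio is given for Ccl2, Ccl7, Cxcl2 and Cxcl9, which had 0 to 7 reads in each of these 5 libraries, and Ccl2 was higher in both KO libraries than in any WT library. Cxcl12 and Cx3cl1 were the members for which KO-3 was not the highest library, at 0.788 times the highest other library in each.

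Some macrophage markers and MHC class II genes were high in the same library. The complement C1q chains, made by resident macrophages, stood at 196 (C1qa), 150 (C1qb) and 124 (C1qc) normalised counts in KO-3 and at 2.17 to 36.3 in the other libraries, and the macrophage receptor Adgre1 stood at 80.5 against 8.66 to 23.0. Cd74, the class II invariant chain, stood at 3089 in KO-3 against 348 to 608 elsewhere, and its regulator Ciita at 49.9 against 2.97 to 8.23. The whole list of 12 macrophage and monocyte markers did not stand apart in sum, at 3499 in KO-3 against 2491 to 3431 in WT and 2289 and 1776 in the other KO libraries, with Mrc1 and Lyz2 holding much of each sum. Its mean of log2(normalised count + 1), which weighs the markers alike, was 7.25 in KO-3 and 5.32 to 6.15 in the other libraries. KO-3 was the highest library for 9 of the 11 tested markers and for 2532 of all 13946 genes tested. Mrc1, the macrophage mannose receptor that endothelial cells can also make, went the other way, at 1316, 1615 and 1681 in WT and 801, 701 and 848 in KO (log2 fold change -0.97, limma adjusted p = 0.0286, and 0.0673 without KO-3). All 12 had reads. The 6 neutrophil markers summed to 231 in KO-3, to 84.2 and 32.5 in the other KO libraries and to 86.9 to 190 in WT, with Ly6g at 0 in every library. The 10 T and NK cell markers summed to 83.9 in KO-3, to 31.0 and 29.2 in the other KO libraries and to 39.1 to 66.7 in WT. Lcn2, an NF-kB target that injured tubule cells make, stood at 357 in KO-3, at 19.5 and 23.8 in the other KO libraries and at 2.47 to 8.69 in WT. The genes of this paragraph were chosen after their values were seen, and their part in the chemokine levels of KO-3 was not tested.

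**Figure D3:**
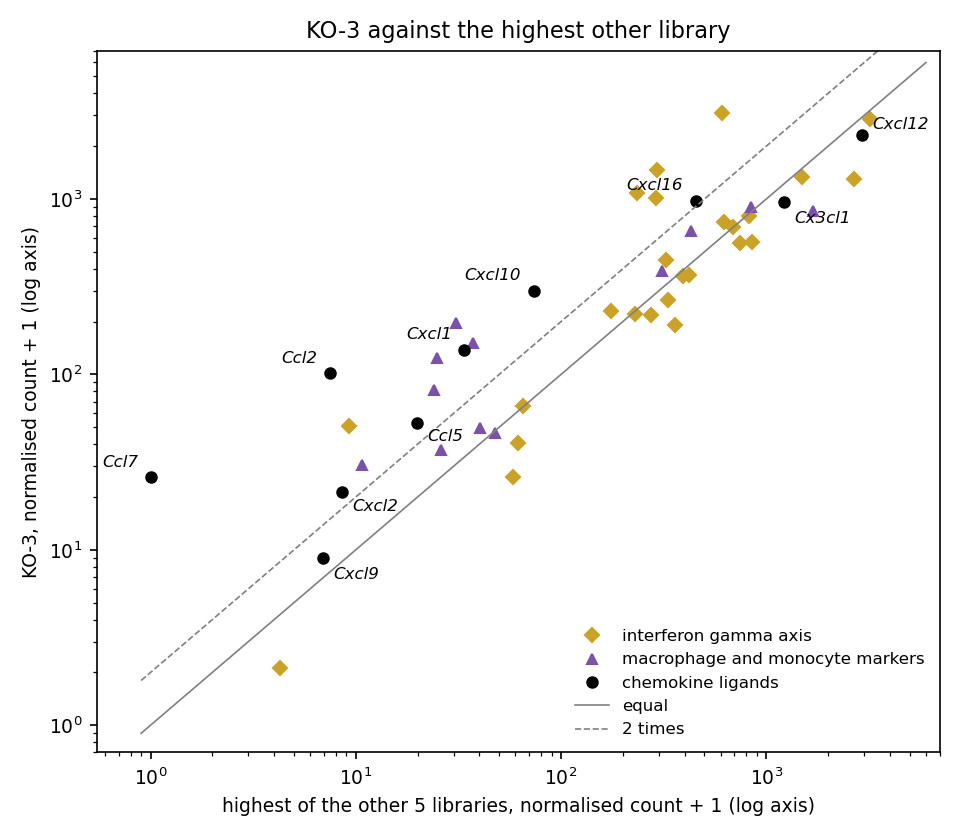
Normalised count + 1 of KO-3 against the highest of the other 5 libraries, both on log axes, for the 10 chemokine ligands (black circles), 12 macrophage and monocyte markers (purple triangles) and 25 genes of the interferon gamma axis (yellow diamonds). Points above the dashed line are at least about 2 times higher in KO-3, as 7 ligands are, while Cxcl12 and Cx3cl1 lie below the line of equal level.

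The order of levels among the ligands was read per kilobase of exon, since their transcripts differ in length. In WT, Cx3cl1 was highest at 270 ± 38.2 normalised counts per kilobase (SD, n = 3), then Cxcl12 at 169 ± 9.79 and Cxcl16 at 119 ± 10.8, and these 3 did not overlap. Ccl5 at 14.5 ± 4.58, Cxcl10 at 13.2 ± 3.06 and Cxcl1 at 10.2 ± 1.6 followed within each other's spread. Cxcl2 at 2.02, Cxcl9 at 1.80 and Ccl2 at 0.821 per kilobase rested on a few reads. In KO, Cxcl12 at 307 ± 45.4 stood above Cx3cl1 at 223 ± 19.2 in all 3 libraries, whereas in all 3 WT libraries it stood below. Cxcl16 was at 146, 149 and 323 per kilobase in KO, so in KO-3 it stood above both. With lengths of the longest coding transcript, WT Cx3cl1 and Cxcl12 were at 320 and 246 per kilobase. KO Cx3cl1 and Cxcl12 were at 264 and 446, the same order for these genes. Before division by length, Cxcl12 stood above Cx3cl1 in WT too, at 1430, 1432 and 1292 against 923, 1039 and 1221 normalised counts. The WT order of these genes thus rests on the lengths used, and which transcripts were expressed was not measured. The place of Cxcl16 in KO-3 changed with these lengths: at 362 it stood above Cx3cl1 at 290 but below Cxcl12 at 411.

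Cxcl12 made up 30.2%, 29.3% and 25.3% of the summed per-kilobase level of the 10 ligands in the WT libraries and 45.7%, 40.4% and 22.7% in the KO libraries. The share was thus highest in KO-1 and KO-2 and lowest in KO-3. Cxcl12, Cx3cl1 and Cxcl16 together held 91.9% to 94.3% of the sum in WT, 91.0% and 93.4% in KO-1 and KO-2, and 68.4% in KO-3. The other 7 ligands held the rest.

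Set against the other 6 tested members, Cxcl12 stood lower in KO-3 than in any other library. The log2 level of Cxcl12 minus the mean log2 level of those members was 5.22, 5.08 and 4.79 in WT, and in KO it was 5.46, 5.36 and 3.24. The KO minus WT difference was -0.34 with KO-3 and 0.38 without it, so its sign rests on that library. It was -0.080 with a pseudocount of 5 and -0.43 with one of 0.5, and no test was made of this score. Ccl2 is among the 6 members only through its level in KO-3, which by itself lowers the score there. The value without KO-3 still counts Ccl2, although that gene then falls under the minimum. Against the mean of Ccl2, Ccl5, Cxcl1 and Cxcl10 only, the KO minus WT difference was -0.83 with KO-3 and 0.12 without it. Against Ccl2 alone, the log2 difference was 10.5, 8.91 and 9.47 in WT and 8.86, 8.24 and 4.51 in KO. These groups did not overlap, but Ccl2 had only a few reads outside KO-3. Against Cx3cl1 alone, the log2 difference was 0.63, 0.46 and 0.08 in WT and 1.83, 1.43 and 1.26 in KO, without overlap and with KO-3 beside the other KO libraries.

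**Figure D4:**
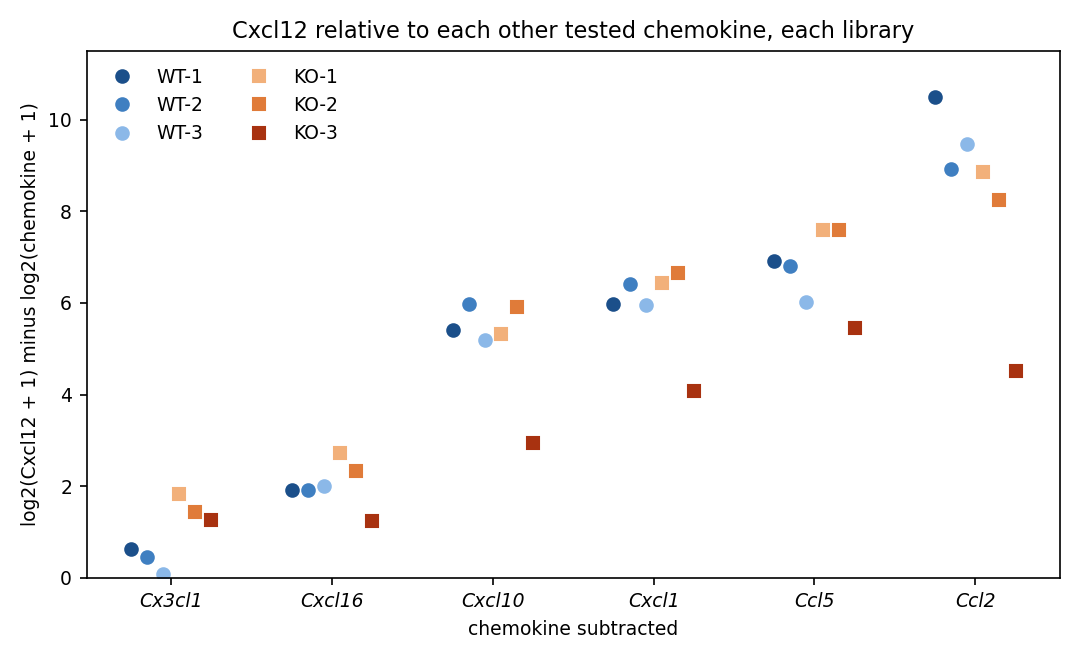
Log2 level of Cxcl12 minus the log2 level of each other tested chemokine, with 1 point per library (blue circles WT, orange and red squares KO). KO libraries lie above WT for Cx3cl1 (1.26 to 1.83 against 0.08 to 0.63), and for the other 5 chemokines KO-3 is the lowest library.

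Of 23 chemokine receptor genes, 8 passed the minimum and 2 were called, both lower in KO and both atypical receptors that bind ligand without G protein signalling. Ackr3, which takes up and degrades Cxcl12, stood at 1015, 862 and 1071 in WT and at 602, 633 and 492 in KO. The groups did not overlap, and the log2 fold change was -0.77 (SE 0.13, limma adjusted p = 0.0286). Ccrl2, which presents chemerin, stood at 665, 738 and 699 in WT and at 503, 403 and 408 in KO, and its log2 fold change was -0.68 (SE 0.11, limma adjusted p = 0.0286). Without WT-2, WT-3, KO-2 and KO-3, limma called 1, 0, 4 and 3 of all genes. For both receptors the limma adjusted p was then 0.107, 0.106, 0.109 and 0.0695. Endothelial markers, whose sums are given above, were lower in the same libraries, and their part in these values was not tested. The 2 of 8 called are 25%, close to the 22.1% of all genes.

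Cxcr4, the signalling receptor of Cxcl12, stood at 134, 119 and 150 in WT and at 125, 92.0 and 109 in KO. These ranges overlapped, and the log2 fold change was -0.31 (SE 0.17, limma adjusted p = 0.224). Ccr2, Cx3cr1, Ccr1, Cxcr2, Cxcr3 and Cxcr6, receptors of other ligands on leukocytes, were highest in KO-3. Ccr2 stood at 69.5, 44.5 and 82.3 in WT and at 70.9, 35.7 and 169 in KO. Cx3cr1 stood at 26.1, 27.7 and 50.2 in WT and at 29.2, 23.8 and 104 in KO. For Ccr2 and Cx3cr1 the log2 fold changes of 0.25 and 0.33 became -0.33 and -0.32 without KO-3. Ccr1, Cxcr2, Cxcr3 and Cxcr6 were under the minimum, at 13.6, 24.9, 6.80 and 6.80 in KO-3. In the other libraries they stood at most at 7.09, 16.5, 3.29 and 2.17. These values rest on few reads, 12, 22, 6 and 6 in KO-3 and at most 8, 20, 4 and 2 in any other library. Ackr1, the atypical receptor of many CC and CXC ligands, had no read in any library.

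None of the 6 tested ligands among 27 other chemokine genes was called by limma, edgeR or DESeq2, and 0 had an unadjusted limma p below 0.05. Of all genes, limma called 22.1% and DESeq2 27.3%, and 5563 of the 13946 tested had an unadjusted limma p below 0.05. The most abundant were Cxcl13, the attractant of B cells, at 174, 99.0 and 97.1 in WT and 187, 118 and 359 in KO, and Ccl27a, at 111, 143 and 110 in WT and 120, 98.5 and 103 in KO. Their log2 fold changes were 0.74 (limma adjusted p = 0.219) and -0.17 (0.496). Ccl28, an epithelial chemokine, stood at 326, 136 and 34.6 in WT and at 42.5, 94.2 and 44.2 in KO, and the high value was that of WT-1. Ccl6 stood at 36.9 to 62.6 in WT and at 26.0 to 88.4 in KO. Of the genes under the minimum, Ccl20 had no read in WT and stood at 2.66, 3.25 and 14.7 in KO. It passed the limma test when the minimum was lowered to a mean of 1 (adjusted p = 0.0374). Cxcl5, an ELR ligand of Cxcr2, had no read in 5 libraries and stood at 13.6 in KO-3. Ccl20 and Cxcl5 were chosen after their values were seen.

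Genes of pathways that induce these ligands were taken as a list of NF-kB and cytokine genes and a list of the interferon gamma axis. Both lists also hold inhibitors and other targets of these pathways, so a call in them is not a call of an inducer. Of 23 tested genes of the NF-kB and cytokine list, 1 was called higher and 2 lower, 13.0% in all, against 22.1% of all genes tested. Nfkbie, an NF-kB inhibitor and target, stood at 293, 334 and 312 in WT and at 502, 413 and 637 in KO, without overlap (log2 fold change 0.70, limma adjusted p = 0.0305). Csf1, the macrophage growth factor, had a log2 fold change of -0.60 (limma adjusted p = 0.0286) and the TNF receptor Tnfrsf1a one of -0.36 (0.0485). The call of Tnfrsf1a was lost in edgeR (adjusted p = 0.0525) and with the minimum lowered to a mean of 1 (0.0554) or removed (0.0613). The list's median log2 fold change was 0.17, beside -0.006 over all genes tested. Tnf and Il6 themselves had at most 8 and 1 reads in a library.

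Of 24 tested genes of the interferon gamma axis, 4 were called, all lower in KO. These are 16.7%, against 22.1% of all genes called in either direction and 8.58% called lower, and the list's median log2 fold change was -0.24. Iigp1, an interferon-induced GTPase, stood at 303, 356 and 281 in WT and at 159, 123 and 191 in KO, and its log2 fold change was -1.0 (limma adjusted p = 0.0286). Gbp7, another interferon-induced GTPase, had a log2 fold change of -0.74 (0.0291), the receptor chain Ifngr1 one of -0.64 (0.0383) and the feedback inhibitor Socs1 one of -1.0 (0.0491). The call of Socs1 was lost in edgeR (adjusted p = 0.0501) and with the minimum lowered to a mean of 1 (0.0575) or removed (0.0766). Ifng itself had 3 reads or fewer in each library. The class II genes of this list and Ciita were the exception in KO-3 given above, at 3.52 to 6.06 times the highest other library.

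Heparan sulphate proteoglycans hold chemokines at cell surfaces and in basement membranes, and proteases trim or release them. Of 17 such genes, all tested, 1 was called higher and 3 lower, which is 23.5% and near the 22.1% of all genes. The cell surface proteoglycans Sdc1, Sdc3 and Gpc1 were lower by log2 fold changes of -0.90, -0.74 and -0.89 (each with a limma adjusted p of 0.0286), and Gpc4 had one of 1.13 (0.0341). Sdc1, for example, stood at 601, 736 and 731 in WT and at 416, 328 and 366 in KO. Adam10 and Adam17, which shed Cx3cl1 and Cxcl16, gave -0.25 (limma adjusted p = 0.0708) and -0.21 (0.295) on the log2 scale and were chosen after their values were seen. Over these 3 lists 11 genes were called, and the number was 0 without WT-2, WT-3, KO-2 or KO-3 and 17 without WT-1. Over all genes, limma called 3085 with every library and 1, 0, 4 and 3 without WT-2, WT-3, KO-2 and KO-3. Without WT-1 it called 4295, so the list counts moved with those of all genes.

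The genes whose log2 level over the 6 libraries was most like that of Cxcl12, by Pearson correlation among 11373 genes with a mean of at least 50, were Plau (urokinase, r = 0.991), Intu (0.988), Lss (0.984), Lrrc40 (0.976) and Nup37 (0.976). The mean of Plau was 2079 ± 163 in WT against 3790 ± 438 in KO (SD, n = 3 each). For Cx3cl1, the member with the next highest mean, they were Gtf3c2 (r = 0.993), Dnttip1 (0.981), Ssh2 (0.980), Cmtm8 (0.979) and Tcf7 (0.976). The points share 6 libraries that differ in genotype and tubule content, and 143 and 165 genes had an r over 0.9 with Cxcl12 and Cx3cl1, so the values are descriptions.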

How the data were processed

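RNA-seq libraries (directional kit, per the labels' protocols) of whole glomeruli from 3 KO and 3 WT mice were compared. The deposited table gives per library a signal, reads per gene that the authors divided by a size factor, per the file headers and the values. Per the submitters' processing notes, bcl2fastq 2.19, cutadapt 1.16.5, HISAT2 2.1, featureCounts 1.6.4, DESeq2 2.11.40.6 (a wrapper's numbering) and mm10 were used. The sources used here do not give the strand setting, annotation or mapping filters, so reads of antisense or near-identical genes may be shared.

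All values (100%) were whole multiples of a step per library at a tolerance of 0.01, which gave whole reads and the floor of 3 reads. Floors cover counting error only. Of the identifiers, 25293 were named, through RefSeq (25275) and GENCODE M21, which also gave lengths. The main test was limma 3.58.1 (R 4.3.3) with a variance trend on log2(normalised count + 1), for 13946 genes with a mean of at least 10, with Benjamini-Hochberg adjustment over all of them and a two-sided threshold of 0.05. Gene names followed a rule: Parva, all members, the known receptors of the members, and in each further list up to 4 genes past the threshold with the smallest adjusted p, with the 4 most abundant of the other ligands. Members, lists and rule were chosen with earlier results of these data known. Alternatives were tests of the recovered reads (edgeR 4.0.16, DESeq2 1.42.0), a replicate block, other scalings, pseudocounts and minimums, no variance trend, and leaving out each library. Steps were tested on simulated data. The labels speak of separate mice, and p-values measure the spread between these samples. A receptor that the rule names is not reported here. A planned description of protein sequences was not made.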

Additional observations from a re-analysis of the deposited data

How the results depend on the processing

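Of the 10 chemokine members, the 1 called by limma became 5 in DESeq2, 0 with a replicate block (3 members at an unadjusted p below 0.05), 0 without the variance trend (2 at an unadjusted p below 0.05) and 0 to 1 with a library left out. Cxcl12 kept its log2 fold change of 0.85 with the block (adjusted p = 0.0868) and without the trend (0.0537), and gave 0.73 to 0.91 with a library left out (adjusted p 0.00365 to 0.109). Receptor calls went from 2 to 0 with the block, 0 without the trend and 0 to 3 with a library left out. Calls among the NF-kB and cytokine, interferon gamma, and proteoglycan and protease lists went from 11 to 0, 0 and 0 to 17. Other ligands called went from 0 to 1 (Ccl20) with a minimum mean of 1 and to 1 without a minimum. Over all genes, limma called 3085, and 0 with the block (4284 at an unadjusted p below 0.05), 1 without the trend (5305) and 0 to 4295 with a library left out, against 2841 in edgeR and 3810 in DESeq2. The replicate numbers are not said to pair the mice, and deviations of same-numbered libraries correlated at -0.23, -0.19 and -0.01, none the best match of its number. Cxcl12 minus the other members was -0.73 to 0.38 with a library left out, positive only without KO-3, and -0.080 with a pseudocount of 5. The value without KO-3 still counted Ccl2. Tnfrsf1a and Socs1 also lost their calls in edgeR and with lower minimums. Reversals among single genes were Ccl5 (-0.11 to 0.97 with a library left out), Ccr2 (-0.33 to 0.78) and Cx3cr1 (-0.32 to 0.72), and Ccl6 (from -0.11 to 0.015 in edgeR, 0.024 in DESeq2 and -0.57 to 0.29 with a library left out); the cause was not tested. Members without overlap numbered 3 to 6 over the settings run. The reads behind Ccl2, Ccl7, Cxcl2 and Cxcl9, 22 to 104 in all libraries together, limit what can be said of them.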

Other observations

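Genes that catch leukocytes at vessel walls and markers of dendritic cells gave values beside those of the chemokines, chosen after they were seen. Sele (E-selectin), an endothelial adhesion receptor, stood at 20.6, 11.9 and 18.9 normalised counts in WT and at 62.9, 24.9 and 51.0 in KO. The groups did not overlap, and KO-1 was the highest library (log2 fold change 1.32, SE 0.41, limma adjusted p = 0.0563). The adjusted p of Sele was 0.04997 in edgeR, 0.0154 in DESeq2 and 0.134 in limma without KO-3. Vcam1 stood at 299, 232 and 148 in WT and at 392, 211 and 933 in KO, and Icam1 at 196, 217 and 198 in WT and at 265, 179 and 501 in KO. Both overlapped between genotypes and both were highest in KO-3. Cd209a and Itgax, markers of dendritic cells and some macrophages, stood at 68.0 and 36.3 in KO-3 and at 7.92 to 19.5 and 4.95 to 15.9 in the other libraries, with all KO libraries above all WT libraries. Their limma adjusted p-values were 0.113 and 0.142. The whole list of 5 dendritic cell markers did not stand apart in sum. It summed to 263 in KO-3, to 260 and 205 in the other KO libraries and to 254 to 290 in WT. Its mean of log2(normalised count + 1) was 4.64 in KO-3 and 3.72 to 4.18 elsewhere. Of the 3 tested markers of that list, 2 were higher and 1 was lower in KO without overlap. The groups did not overlap for 45.1% of all genes tested in either direction and for 23.2% in the higher direction.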
